A study of Homo sapiens with 36 samples.

Results

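MRFAP1, F11R, DDIT4, COPRS and TARDBP were among the messages with the highest recovery with the m6A reader YTHDF2, at ranks 1, 2, 3, 7 and 8 of 9085 genes of sufficient level. They are 5 of the 60675 genes in the count tables, and they were picked by their level in YTHDF2 RNA immunoprecipitation (RIP) against input in the 3 lines of the study. These YTHDF2 RIP and input levels are therefore given as a description with no test. Tests were made only between libraries that the choice did not use, the YTHDF3 RIP and YTHDF1 RIP libraries.

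YTHDF1, YTHDF2 and YTHDF3 are closely related cytoplasmic proteins that bind N6-methyladenosine (m6A), a methyl mark on the adenosines of messenger RNA, through a YTH domain. YTHDF2 is best known for recruiting the CCR4-NOT deadenylase complex and shortening the life of the messages it binds. Whether the 3 proteins bind the same messages or partly different ones is the question that comparing their RIPs addresses. RIP recovers the RNA held by an antibody-bound protein, and a level in RIP against input says how much more of a message came down than its share of the lysate predicts. A TRIBE fusion joins an RNA-binding protein to the catalytic domain of the enzyme ADAR, which converts adenosine to inosine near the bound site, read as G in sequencing.

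The cells were HEK293T, a human embryonic kidney line, in 3 genotypes, each with 1 fusion: YTHDF1-ADAR, YTHDF2-ADAR or YTHDF3-ADAR. All 36 libraries came from cells given doxycycline at 1 µg/mL for 24 h to induce the fusion, so no library shows cells without a fusion. From each genotype there were 3 libraries each of YTHDF2 RIP, YTHDF3 RIP, YTHDF1 RIP and input RNA, which makes 12 groups. Per the labels' protocols the endogenous proteins were immunoprecipitated, and whether the antibodies also recovered the fusion was not tested. The labels do not say whether a genotype is 1 clone, and nothing states that the replicates were separate cultures, so p-values measure only the spread between these libraries. RNA was depleted of rRNA, and the deposited values are read counts per gene. In these bulk samples, a message carried by more cells and a message more abundant in each cell cannot be told apart. The HEK293T markers LIN28B, NEFM, NEFL, PAX2, VIM and SOX2 were detected in every input and summed to 820 to 2601 counts per 1000000 (CPM). Of these, PAX2 at 3.80 to 7.89 CPM and SOX2 at 4.41 to 6.69 CPM were low. Both lay below the fibroblast marker COL1A1, at 13.8 to 30.2 CPM. Markers of other cells were low: 4 blood markers summed to 1.40 to 4.65 CPM with PTPRC and HBB at 0, and 4 fibroblast markers to 14.6 to 31.9 CPM, mostly COL1A1. The 3 hepatocyte markers reached at most 0.387 CPM and the 3 epithelial markers, with KRT5 at 0, at most 1.98 CPM.

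Libraries held 12.5 to 37.5 M counts (M for 1000000), with a median of 28.1 M. Outside the YTHDF1-ADAR line, the YTHDF1 RIP libraries, 6 in all, differed from the other 30. They held 12.5 to 16.3 M counts, against 15.9 to 37.5 M in the others. Protein-coding genes took 54.1 to 74.2% of their counts, against 71.5 to 92.4% in the others, and small nucleolar RNAs took 0.696 to 4.35%, against 0.0360 to 0.564%. Mitochondrial mRNAs took 3.15 to 8.58% of their counts, against 0.561 to 3.06%, and olfactory receptor genes, best known from sensory neurons of the nose, summed to 32.3 to 54.3 CPM, against 2.82 to 18.5 CPM. In every comparison below that uses these 6 libraries, what the antibody recovered and how these libraries were made cannot be told apart. Among the other 30, YTHDF1-ADAR YTHDF2 RIP replicate 3 held 15.9 M counts. It had 82.8% in protein-coding genes, 0.564% in small nucleolar RNAs and 18.5 CPM of olfactory receptor genes. Replicates 1 and 2 of that group had 90.0 and 90.3%, 0.155 and 0.115%, and 7.54 and 6.24 CPM. YTHDF1-ADAR input replicate 1 held 20.7 M counts, 0.348% in small nucleolar RNAs and 13.9 CPM of olfactory receptor genes. Replicates 2 and 3 of that input held 30.3 and 29.9 M, 0.235 and 0.162%, and 4.29 and 4.72 CPM. MRFAP1 and COPRS were at their lowest input levels in that replicate 1, at 169 and 12.6 CPM, and its part in their values against input was not tested on its own.

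The member genes differed in structure. MRFAP1 (ENSG00000179010) lies on the plus strand of chromosome 4 from 6640091 to 6642745 in GRCh38 and has 1 exon segment of 2655 bases. F11R (ENSG00000158769) lies on the minus strand of chromosome 1 from 160995211 to 161021343, with 10 exon segments and 5061 exon bases. DDIT4 (ENSG00000168209) lies on the plus strand of chromosome 10 from 72273924 to 72276036, with 2 segments and 2054 bases. Both MRFAP1 and DDIT4 have few exons for a protein-coding gene, since 7.36% of the 15966 tested protein-coding genes have 2 or fewer segments and the median gene has 10 segments and 4903.5 exon bases. COPRS (ENSG00000172301) lies on the minus strand of chromosome 17 from 31851871 to 31859291, with 6 segments and 1379 bases. TARDBP (ENSG00000120948) lies on the plus strand of chromosome 1 from 11012344 to 11025739, with 11 segments and 5317 bases. In mean level over the 36 libraries, MRFAP1, TARDBP and DDIT4 stood at the 98.1, 97.7 and 96.0 percentile of tested protein-coding genes, F11R at the 69.3 and COPRS at the 47.2, so the members spanned middling to very abundant messages.

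Counting ignored strand and gave reads to every overlapping gene, so some member levels include reads of neighbours. F11R shares 1853 exon bases with an unnamed protein-coding gene on its own strand that drew 31995 counts over all libraries, set beside 53397 for F11R. DDIT4 shares 847 bases with an unnamed gene on the opposite strand, which drew 146708 counts beside 250636 for DDIT4. TARDBP shares 1760 bases with an unnamed gene on its own strand, which drew 153832 counts beside 297551 for TARDBP. Reads of these pairs cannot be told apart, and the 3 levels are uncertain to that extent. MRFAP1 has a paralog, MRFAP1L1, with 17.0% as many counts, and the pseudogenes of COPRS and TARDBP had under 1% of their parents' counts. Multi-mapping reads were also given to every gene, so MRFAP1 and MRFAP1L1 can share reads and their values are not independent to that extent.

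MRFAP1 encodes a small protein that binds the chromatin factors MORF4L1 and MORF4L2. Levels of each message are given as CPM scaled between libraries by the trimmed mean of M-values (TMM). In YTHDF2 RIP, MRFAP1 stood at 1164, 805 and 1201 CPM in YTHDF1-ADAR cells, at 1177, 1172 and 1212 CPM in YTHDF2-ADAR cells, and at 550.5, 846 and 1095 CPM in YTHDF3-ADAR cells. Its inputs held 169, 281 and 279.8 CPM in YTHDF1-ADAR cells, 391, 384 and 373 CPM in YTHDF2-ADAR cells, and 363, 309 and 319 CPM in YTHDF3-ADAR cells. The lowest YTHDF2 RIP library was above the highest input. In YTHDF3 RIP the message was at 199.8, 156 and 98.3 CPM in YTHDF1-ADAR cells, at 204, 354 and 217 CPM in YTHDF2-ADAR cells, and at 267, 214 and 231 CPM in YTHDF3-ADAR cells. In YTHDF1 RIP it was at 218, 170.4 and 359 CPM in YTHDF1-ADAR cells, but at 88.4, 105 and 119.7 CPM in YTHDF2-ADAR cells and 111, 120.2 and 65.6 CPM in YTHDF3-ADAR cells. The order of levels was thus YTHDF2 RIP, input, YTHDF3 RIP and YTHDF1 RIP in the YTHDF2-ADAR and YTHDF3-ADAR cells, while in YTHDF1-ADAR cells the ranges of input, YTHDF1 RIP and YTHDF3 RIP overlapped. Its log2 fold change in YTHDF2 RIP against input was 2.12 ± 0.28 (SE) in YTHDF1-ADAR cells, 1.63 ± 0.27 in YTHDF2-ADAR cells and 1.33 ± 0.27 in YTHDF3-ADAR cells, and the paralog MRFAP1L1 had a mean of 1.28 ± 0.15 over the lines.

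F11R encodes junctional adhesion molecule A, an immunoglobulin-type membrane protein of tight junctions. Its YTHDF2 RIP levels were 128, 106 and 145 CPM in YTHDF1-ADAR cells, 135, 114 and 131 CPM in YTHDF2-ADAR cells, and 101, 116 and 142 CPM in YTHDF3-ADAR cells. Input levels were 35.5, 33.1 and 47.6 CPM in YTHDF1-ADAR cells, 39.1, 38.7 and 35.4 CPM in YTHDF2-ADAR cells, and 53.9, 52.3 and 49.9 CPM in YTHDF3-ADAR cells. All 9 YTHDF2 RIP libraries stood above all 9 inputs, and the fitted log2 differences were 1.71 ± 0.14, 1.75 ± 0.14 and 1.20 ± 0.14 in the YTHDF1-ADAR line, the YTHDF2-ADAR line and the YTHDF3-ADAR line. YTHDF3 RIP gave 32.0, 30.1 and 27.0 CPM in YTHDF1-ADAR cells, 41.3, 37.4 and 40.6 CPM in YTHDF2-ADAR cells, and 52.0, 50.1 and 58.8 CPM in YTHDF3-ADAR cells. YTHDF1 RIP gave 22.4, 18.4 and 20.1 CPM in YTHDF1-ADAR cells, 9.00, 9.26 and 9.83 CPM in YTHDF2-ADAR cells, and 12.4, 15.0 and 13.3 CPM in YTHDF3-ADAR cells. YTHDF1 RIP was the lowest arm in each line, and YTHDF3 RIP overlapped the input in YTHDF2-ADAR and YTHDF3-ADAR cells. F11R had the steadiest replicates of the 5, with a median coefficient of variation of 8.75% over the 12 groups.

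DDIT4, also known as REDD1, is a stress-induced inhibitor of the growth kinase complex mTORC1. It reached 376, 323 and 693 CPM in YTHDF2 RIP of YTHDF1-ADAR cells, 633, 550.4 and 696 CPM in that of YTHDF2-ADAR cells, and 675, 438 and 409 CPM in that of YTHDF3-ADAR cells. Its inputs were 116, 110.3 and 240.1 CPM in YTHDF1-ADAR cells, 260.5, 248 and 175 CPM in YTHDF2-ADAR cells, and 206, 212 and 131 CPM in YTHDF3-ADAR cells. No YTHDF2 RIP library overlapped an input, and the log2 fold changes, 1.58 ± 0.32, 1.46 ± 0.32 and 1.47 ± 0.32 in the YTHDF1-ADAR line, the YTHDF2-ADAR line and the YTHDF3-ADAR line, were nearly the same in the 3 lines. YTHDF3 RIP held 84.7, 77.6 and 90.6 CPM in YTHDF1-ADAR cells, 163, 169 and 168 CPM in YTHDF2-ADAR cells, and 115, 134 and 292 CPM in YTHDF3-ADAR cells. YTHDF1 RIP held 498, 527 and 315 CPM in YTHDF1-ADAR cells, but 46.0, 59.6 and 72.9 CPM in YTHDF2-ADAR cells and 53.5, 59.7 and 43.1 CPM in YTHDF3-ADAR cells. DDIT4 was the only member that YTHDF1 RIP recovered at a level overlapping YTHDF2 RIP, and that held in YTHDF1-ADAR cells alone: the log2 difference between YTHDF2 RIP and YTHDF1 RIP was 0.05 ± 0.32 there, 3.40 ± 0.35 in YTHDF2-ADAR cells and 3.28 ± 0.35 in YTHDF3-ADAR cells.

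COPRS encodes a histone-binding partner that steers the arginine methyltransferase PRMT5 to histone H4. The least abundant of the 5, it stood at 68.1, 48.3 and 63.0 CPM in YTHDF2 RIP of YTHDF1-ADAR cells, at 61.2, 57.7 and 71.2 CPM in that of YTHDF2-ADAR cells, and at 37.6, 49.2 and 65.3 CPM in that of YTHDF3-ADAR cells. Inputs gave 12.6, 21.6 and 21.3 CPM in YTHDF1-ADAR cells, 22.2, 20.0 and 18.3 CPM in YTHDF2-ADAR cells, and 27.7, 26.6 and 28.0 CPM in YTHDF3-ADAR cells. Again every YTHDF2 RIP library exceeded every input, with log2 fold changes of 1.69 ± 0.25, 1.65 ± 0.24 and 0.89 ± 0.24 in the YTHDF1-ADAR line, the YTHDF2-ADAR line and the YTHDF3-ADAR line. YTHDF3 RIP gave 13.3, 12.1 and 6.31 CPM in YTHDF1-ADAR cells, 11.1, 15.7 and 11.9 CPM in YTHDF2-ADAR cells, and 13.7, 12.2 and 14.7 CPM in YTHDF3-ADAR cells. YTHDF1 RIP gave 6.57, 5.68 and 12.2 CPM in YTHDF1-ADAR cells, 4.63, 5.997 and 7.16 CPM in YTHDF2-ADAR cells, and 6.81, 6.57 and 5.36 CPM in YTHDF3-ADAR cells. Outside YTHDF1-ADAR cells COPRS was ordered YTHDF2 RIP, input, YTHDF3 RIP and YTHDF1 RIP with no overlap between neighbouring arms of a line.

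TARDBP encodes TDP-43, an RNA-binding protein of the nucleus that controls splicing and, by a known feedback on its own message, its own level. Its YTHDF2 RIP values were 667, 562 and 486 CPM in YTHDF1-ADAR cells, 567, 530.5 and 602 CPM in YTHDF2-ADAR cells, and 256, 490.5 and 708 CPM in YTHDF3-ADAR cells. Input values were 154, 226 and 187 CPM in YTHDF1-ADAR cells, 185, 186 and 222 CPM in YTHDF2-ADAR cells, and 229.7, 212 and 256 CPM in YTHDF3-ADAR cells. Each line kept YTHDF2 RIP above input, in YTHDF3-ADAR cells by a margin of under 1 CPM for the lowest RIP library, and the log2 fold changes were 1.60 ± 0.26, 1.52 ± 0.26 and 1.06 ± 0.25 in the YTHDF1-ADAR line, the YTHDF2-ADAR line and the YTHDF3-ADAR line. YTHDF3 RIP values were 334, 307 and 182 CPM in YTHDF1-ADAR cells, 326, 366 and 361 CPM in YTHDF2-ADAR cells, and 432, 327 and 267 CPM in YTHDF3-ADAR cells. YTHDF1 RIP values were 207, 139 and 309 CPM in YTHDF1-ADAR cells, 116, 114 and 118 CPM in YTHDF2-ADAR cells, and 127, 143 and 126 CPM in YTHDF3-ADAR cells. TARDBP was the only member whose log2 difference between YTHDF3 RIP and input was above 0 by more than its SE in each line, at 0.54 ± 0.25 in YTHDF1-ADAR cells, 0.83 ± 0.25 in YTHDF2-ADAR cells and 0.55 ± 0.25 in YTHDF3-ADAR cells. In YTHDF3-ADAR cells its YTHDF2 RIP and YTHDF3 RIP ranges overlapped.

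**Figure D1:**
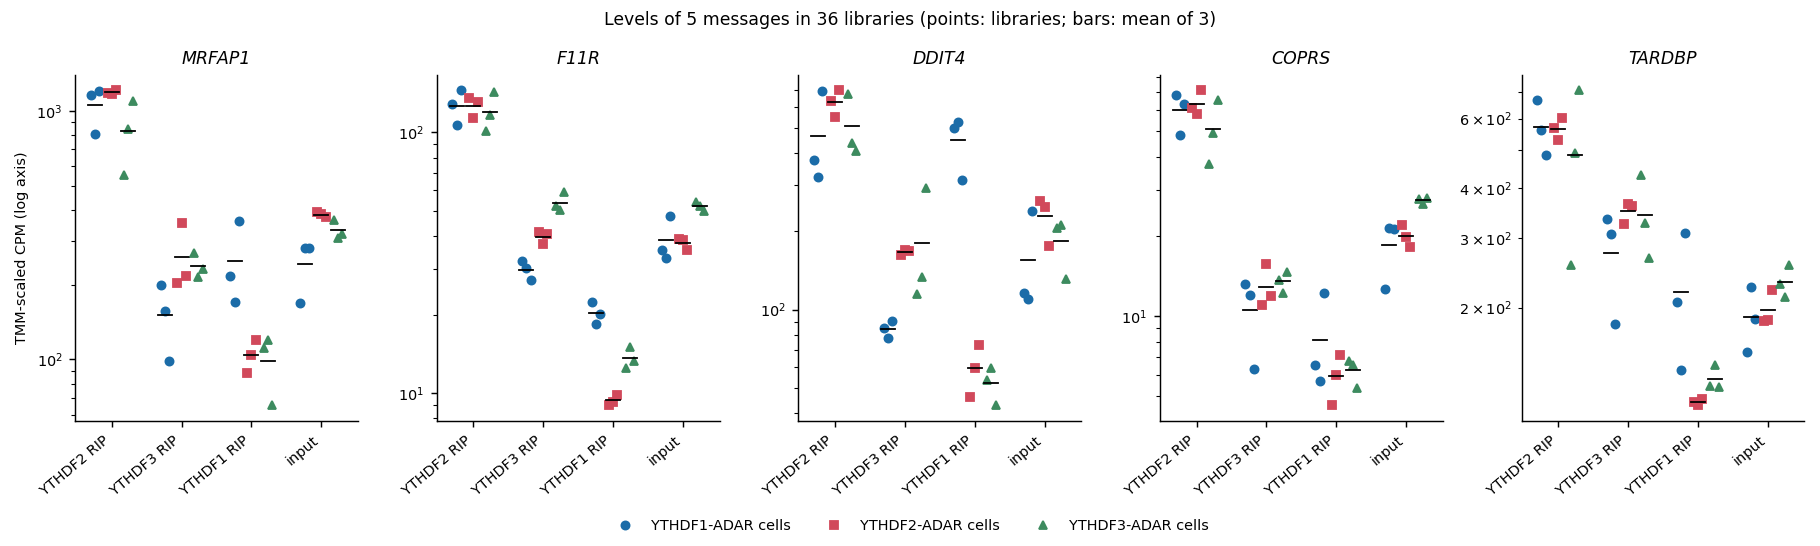
TMM-scaled CPM of each message (log axis) in the YTHDF2 RIP, YTHDF3 RIP, YTHDF1 RIP and input libraries of the 3 lines; points are libraries and bars the means of 3. The YTHDF2 RIP libraries sit above the inputs for each message, and DDIT4 in YTHDF1 RIP of YTHDF1-ADAR cells, at 315 to 527 CPM, sits with its YTHDF2 RIP values.

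Averaged over lines, the log2 fold change in YTHDF2 RIP against input was 1.69 ± 0.16 for MRFAP1, 1.55 ± 0.08 for F11R, 1.50 ± 0.19 for DDIT4, 1.41 ± 0.14 for COPRS and 1.39 ± 0.15 for TARDBP. Among the 31849 genes tested, 39.7% were called in this contrast by edgeR's quasi-likelihood test with Benjamini-Hochberg adjustment at 0.05 (17.9% higher and 21.8% lower), and the median gene had -0.02; this contrast chose the members, and nothing is read from their place in it. The split of calls depends on scaling: 5704 genes were higher and 6952 lower with TMM factors, 8521 and 4574 with total counts, and 3293 and 1825 when scaled to the 13 mitochondrially encoded mRNAs. Among 9085 genes with a symbol and a mean log2 CPM of at least 4, the members ranked 1, 2, 3, 7 and 8 by this mean. PSMD2 at 1.47, SLC18B1 at 1.43 and ZNF778 at 1.42 ranked between DDIT4 and COPRS and are not members, and LRP2, at 1.37, came next after TARDBP. By the lowest of the 3 lines the order was DDIT4 (rank 1), MRFAP1 (2), F11R (3), TARDBP (21) and COPRS (89), so the last 2 names rest on YTHDF1-ADAR and YTHDF2-ADAR cells more than on YTHDF3-ADAR cells. The authors' deposited table gives log2 fold changes in YTHDF2 RIP of 1.78 for MRFAP1, 1.64 for F11R, 1.59 for DDIT4, 1.49 for COPRS and 1.49 for TARDBP.

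The other RIPs shared their inputs with YTHDF2 RIP, so their values against input are set side by side with no test. Averaged over lines, YTHDF3 RIP against input stood at -0.58 ± 0.16 for MRFAP1, -0.09 ± 0.08 for F11R, -0.45 ± 0.18 for DDIT4, -0.83 ± 0.14 for COPRS and 0.64 ± 0.15 for TARDBP on the log2 scale. YTHDF1 RIP against input stood at -1.19 ± 0.16 for MRFAP1, -1.63 ± 0.08 for F11R, -0.74 ± 0.18 for DDIT4, -1.69 ± 0.15 for COPRS and -0.46 ± 0.15 for TARDBP. These YTHDF1 RIP means cover lines that differ. MRFAP1 was at 0.03 ± 0.27 in YTHDF1-ADAR cells, -1.88 ± 0.28 in YTHDF2-ADAR cells and -1.74 ± 0.28 in YTHDF3-ADAR cells, and TARDBP at 0.21 ± 0.25, -0.77 ± 0.25 and -0.82 ± 0.25 in the same order of lines. DDIT4 had opposite values, which were 1.52 ± 0.32 in YTHDF1-ADAR cells, -1.94 ± 0.33 in YTHDF2-ADAR cells and -1.81 ± 0.33 in YTHDF3-ADAR cells. YTHDF2 RIP against YTHDF3 RIP ran from 0.50 (TARDBP in YTHDF3-ADAR cells) to 2.80 (MRFAP1 in YTHDF1-ADAR cells) over the members and lines.

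**Figure D2:**
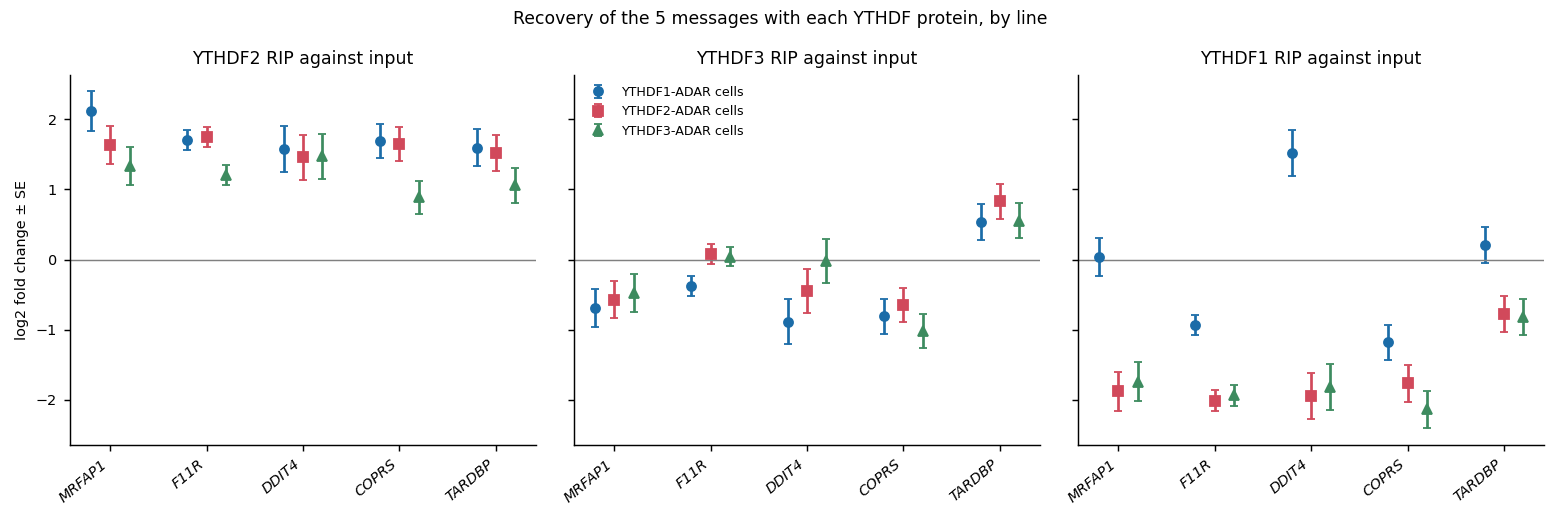
Log2 fold change ± SE of each message in YTHDF2, YTHDF3 and YTHDF1 RIP against input, by line, from 1 model of 36 libraries. YTHDF2 RIP lies at 0.89 to 2.12, YTHDF3 RIP near or below 0 except for TARDBP, and YTHDF1 RIP of DDIT4 at 1.52 in YTHDF1-ADAR cells and near -1.9 in the other lines.

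YTHDF3 RIP and YTHDF1 RIP were compared with each other within each line, a contrast free of the values that chose the members. In YTHDF1-ADAR cells, where neither arm stood apart, F11R was higher in YTHDF3 RIP (log2 fold change 0.55 ± 0.14, adjusted p = 0.0015, edgeR's quasi-likelihood test with Benjamini-Hochberg adjustment). DDIT4 was lower there, at -2.40 ± 0.33 (adjusted p = 5.39e-07, same edgeR test), with 84.7, 77.6 and 90.6 CPM in YTHDF3 RIP against 498, 527 and 315 CPM in YTHDF1 RIP. MRFAP1 was also called lower (-0.72 ± 0.27, adjusted p = 0.031 by edgeR), but its groups overlapped, and the call was lost, among other settings, without YTHDF1 RIP replicate 1 (-0.74, adjusted p = 0.063 by edgeR), without YTHDF1 RIP replicate 3 (-0.29, adjusted p = 0.453 by edgeR) and without YTHDF3 RIP replicate 3 (-0.43, adjusted p = 0.276 by edgeR). COPRS (0.37 ± 0.25, adjusted p = 0.26) and TARDBP (0.33 ± 0.25, adjusted p = 0.32) did not pass the edgeR test. Without YTHDF1 RIP replicate 3, in which both were highest, COPRS was called at 0.85 (adjusted p = 0.00995 by edgeR) and TARDBP at 0.73 (adjusted p = 0.030 by edgeR); COPRS was called also without YTHDF3 RIP replicate 3, at 0.68 (adjusted p = 0.037 by edgeR). Thus 3 of 5 members were called, 1 higher and 2 lower, where 41.1% of all genes were called (18.7% higher, 22.4% lower) and the median gene had -0.07. Scaled to mitochondrially encoded mRNAs, the median gene moved to 1.41 and the split of all calls to 15786 higher and 155 lower, set beside 5944 and 7143 with TMM. On that scale DDIT4 was at -0.93 (adjusted p = 0.068 by edgeR) and MRFAP1 at 0.86, no longer called but both below the median gene, while COPRS and TARDBP, at 1.92 and 1.90, were called.

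In YTHDF2-ADAR and YTHDF3-ADAR cells, all 5 members were higher in YTHDF3 RIP than in YTHDF1 RIP. In YTHDF2-ADAR cells the log2 fold changes were 2.09 for F11R, 1.60 for TARDBP, 1.49 for DDIT4, 1.31 for MRFAP1 and 1.12 for COPRS (highest adjusted p = 0.000336 by edgeR), where 72.6% of genes were called, 30.3% higher and 42.4% lower, and the median was -0.31. In YTHDF3-ADAR cells the log2 fold changes were 1.98 for F11R, 1.79 for DDIT4, 1.37 for TARDBP, 1.26 for MRFAP1 and 1.11 for COPRS (highest adjusted p = 0.000327 by edgeR), where 72.2% of genes were called, 29.8% higher and 42.5% lower, and the median was -0.32. No YTHDF3 RIP library of these lines overlapped a YTHDF1 RIP library of the same line for any of the 5. The share of all genes with no such overlap was not counted, so nothing is read from this. The 5 calls held in each line when scaled to mitochondrially encoded mRNAs, where the split of all calls was 15938 higher and 4137 lower in YTHDF2-ADAR cells (9637 and 13498 with TMM) and 17865 and 2741 in YTHDF3-ADAR cells (9481 and 13526 with TMM). The YTHDF1 RIP side here is the 6 libraries that stood apart, with 32.3 to 54.3 CPM of olfactory receptor genes, and their part in these differences was not tested.

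The difference between YTHDF3 RIP and YTHDF1 RIP was itself smaller or turned round in YTHDF1-ADAR cells against the mean of the other lines. It changed by -4.04 ± 0.41 on the log2 scale for DDIT4 (adjusted p = 8.48e-10, edgeR interaction test), by -2.00 ± 0.33 for MRFAP1, by -1.48 ± 0.18 for F11R, by -1.16 ± 0.31 for TARDBP (adjusted p = 0.0015 by edgeR) and by -0.75 ± 0.31 for COPRS (adjusted p = 0.032 by edgeR). All 5 were called lower, where 68.0% of genes were called, 29.3% lower and 38.6% higher. The median gene was at 0.31, with 12304 genes higher and 9338 lower, but at -0.19, with 9803 and 12156, when only the libraries of the groups compared were fitted. The COPRS call was lost without YTHDF1-ADAR YTHDF1 RIP replicate 3 (adjusted p = 0.143 by edgeR) and without YTHDF1-ADAR YTHDF3 RIP replicate 3 (adjusted p = 0.059 by edgeR).

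**Figure D3:**
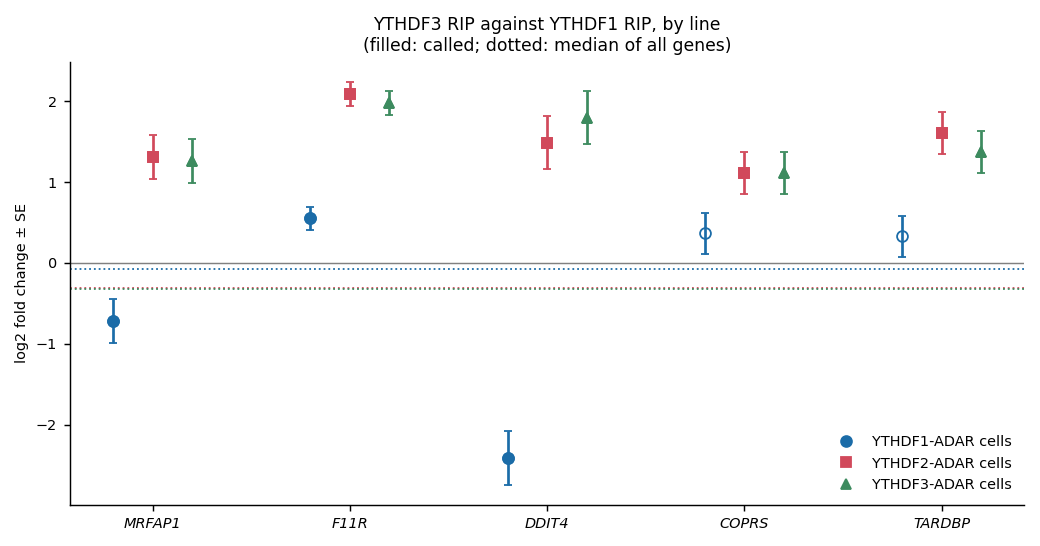
Log2 fold change ± SE of each message in YTHDF3 RIP against YTHDF1 RIP, by line; filled symbols passed the edgeR test at an adjusted p of 0.05 and dotted lines mark the median of all genes tested. The values of the other lines all lie above 1.1, and in YTHDF1-ADAR cells DDIT4 lies at -2.40.

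The same arms were then set against each other between lines. In YTHDF1 RIP, 4 of the 5 were higher in YTHDF1-ADAR cells, against the other lines' mean: DDIT4 by 3.00 ± 0.27 (adjusted p = 3.07e-11 by edgeR), MRFAP1 by 1.30 ± 0.23, F11R by 0.84 ± 0.12 and TARDBP by 0.82 ± 0.21 (adjusted p = 9.4e-04 by edgeR). With 1 library left out, TARDBP ran from 0.72 to 1.30 (highest adjusted p = 0.0068 by edgeR), with 1.30 reached without YTHDF1-ADAR YTHDF1 RIP replicate 2. COPRS, at 0.43 ± 0.22, did not pass (adjusted p = 0.081 by edgeR), and its value ran from 0.24 to 0.87 with 1 library left out. It was called without YTHDF1-ADAR YTHDF1 RIP replicate 1 (0.80) or 2 (0.87), without YTHDF2-ADAR YTHDF1 RIP replicate 1 (0.58) or 3 (0.74) and without YTHDF3-ADAR YTHDF1 RIP replicate 2 (0.68; adjusted p = 0.0027 to 0.030 by edgeR over these 5). Of all genes 75.3% were called, 27.8% higher and 47.5% lower, with a median of -0.53 and 8851 genes higher and 15128 lower, against 11326 and 4071 when scaled to mitochondrially encoded mRNAs. The libraries of the other lines are again the 6 that stood apart, and their part in these differences was not tested. In YTHDF3 RIP, where no library stood apart, F11R was higher in YTHDF3-ADAR cells (52.0, 50.1 and 58.8 CPM) than in the other lines (27.0 to 41.3 CPM), with no overlap and a log2 difference of 0.64 ± 0.12 (adjusted p = 2.63e-04 by edgeR). Its input was also highest in YTHDF3-ADAR cells, at 49.9 to 53.9 CPM against 33.1 to 47.6 CPM in the other lines, and the part of the input level in this difference was not tested. Scaled to the 13 mitochondrially encoded mRNAs, the F11R difference was 0.36 and no longer called (adjusted p = 0.849 by edgeR). The other 4 did not pass, at 0.61 for DDIT4 (adjusted p = 0.16 by edgeR), 0.26 for MRFAP1, 0.22 for COPRS and 0.14 for TARDBP, where 10.5% of genes were called, 7.18% higher and 3.30% lower. The DDIT4 value rests on YTHDF3-ADAR YTHDF3 RIP replicate 3, at 292 CPM, without which it was 0.073 (adjusted p = 0.937 by edgeR). With 1 library left out, it ran up to 0.82 and was not called.

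Editing was a second readout in these cells, pooled over replicates by the authors, so its values come with no estimate of error. No library lacks a fusion, so editing by the fusion and editing from other sources cannot be told apart. Editing level is the percent of reads edited averaged over a gene's sites, as far as the deposited scores show. In YTHDF1-ADAR cells, the authors' deposited editing table lists 4 of the 5 members, where it lists 72.7% of 9073 gene symbols with a mean log2 CPM of at least 4. These genes were not matched in level to the members, whose mean log2 CPM ran from 4.15 (COPRS) to 8.24 (MRFAP1). DDIT4, with 8 sites, was edited at 5.05% in YTHDF2 RIP, 4.04% in YTHDF3 RIP, 5.72% in YTHDF1 RIP and 3.73% in input. TARDBP, with 16 sites, was at 4.31%, 3.61%, 4.11% and 3.04% in the same order of arms, and MRFAP1, with 5 sites, at 3.08%, 3.47%, 3.60% and 2.42%. For these 3 messages each RIP exceeded input, as did the medians of the 7800 genes with a value in every arm, which were 3.39%, 3.18%, 3.71% and 2.5%.

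COPRS had 1 site, at 0.0756% in YTHDF2 RIP, 0.599% in YTHDF3 RIP, 0 in YTHDF1 RIP and 0.839% in input, and F11R was not in that table. No listed member had an adjusted p under 0.05 in the authors' deposited table for any RIP against input (lowest 0.308), where 1.63% of genes did for YTHDF2 RIP, 1.12% for YTHDF3 RIP and 8.12% for YTHDF1 RIP. With so few genes called, nothing is read from the members' count. In YTHDF2-ADAR cells the deposited editing table lists none of the 5, among 2402 genes, and 22.4% of the same 9073 gene symbols, not matched in level, are in it. In YTHDF3-ADAR cells, whose table lists 2944 genes and 28.1% of the genes compared, F11R had 2 sites at 1.57% in YTHDF2 RIP, 0.997% in YTHDF3 RIP, 0 in YTHDF1 RIP and 1.58% in input, and TARDBP had 1 site at 0.344%, 1.80%, 0 and 0.552% in the same order. Depth per site is not given in these tables, so no interval can be set on a level or on a 0.

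**Figure D4:**
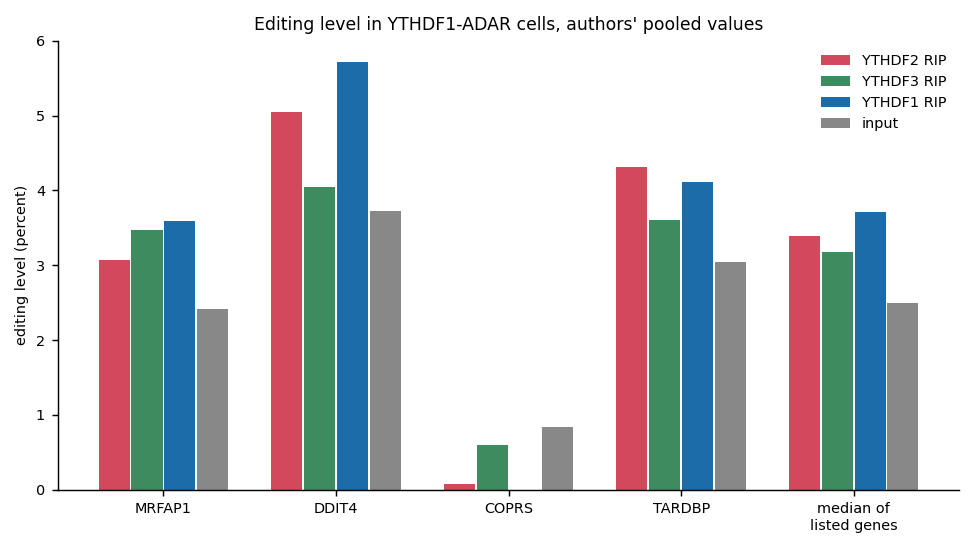
Editing level in percent of the 4 members in the authors' deposited table of YTHDF1-ADAR cells, by arm, beside the median of listed genes; bars are pooled values with no replicate error. DDIT4 reaches 5.72% in YTHDF1 RIP and COPRS stays under 1% in every arm.

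Genes that work with the members were examined as lists, in YTHDF2 RIP against input and in YTHDF3 RIP against YTHDF1 RIP of each line. The first of these contrasts chose the members, so the lists are not compared with the members in it. In YTHDF2 RIP against input, averaged over lines, 17.9% of all genes were called higher and 21.8% lower, and the median gene had -0.02. Of 17 genes around MRFAP1, 6 rose and 5 fell (median -0.03), with the demethylase KDM5A at 0.85 and the acetylation reader YEATS4 at -1.47. The MRFAP1 list holds chromatin partners and, in all counts here and below, the paralog MRFAP1L1. That paralog was at 1.28 ± 0.15 and can share reads with MRFAP1. Of 22 tight-junction genes around F11R, 9 rose and 4 fell (median 0.17), among them cingulin, CGN, at 0.74. Of 22 genes of stress control of mTORC1 around DDIT4, 7 rose and 6 fell (median 0.06), with the mTORC1 subunit RPTOR at 0.70 and the hypoxia-induced BNIP3 at -0.94.

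Around COPRS, 4 of 14 methylosome and methyltransferase genes rose and 8 fell (median -0.32), with the spliceosome protein SNRPD3 at -1.02 and PRMT3 at -0.62. Around TARDBP, 6 of 18 RNA-binding and motor-neuron-disease genes rose and 1 fell (median -0.02), with the RNA export factor POLDIP3 at 0.78. All of the named genes passed edgeR's test, where 39.7% of genes did; PRMT3 did not when scaled to mitochondrially encoded mRNAs (-0.34, adjusted p = 0.378 by edgeR), a scale on which the counts that rose and fell in the 5 lists, in the order above, were 4 and 2, 7 and 0, 4 and 2, 3 and 2, and 4 and 0. In YTHDF3 RIP against YTHDF1 RIP of YTHDF1-ADAR cells, where 18.7% of all genes were called higher and 22.4% lower and the median gene had -0.07, the counts that rose and fell were 7 and 2 for the MRFAP1 list (median 0.17), 8 and 4 for the F11R list (0.12), 8 and 7 for the DDIT4 list (0.01), 8 and 2 for the COPRS list (0.54) and 12 and 0 for the TARDBP list (0.83). Scaled to mitochondrially encoded mRNAs, with the median gene at 1.41, no gene of the 5 lists was called lower and 16, 16, 16, 11 and 18 were called higher. In YTHDF2-ADAR cells, with 30.3% of all genes called higher and 42.4% lower, the counts that rose and fell were 9 and 2 for the MRFAP1 list, 14 and 3 for the F11R list, 15 and 1 for the DDIT4 list, 5 and 1 for the COPRS list and 8 and 2 for the TARDBP list. In YTHDF3-ADAR cells, with 29.8% called higher and 42.5% lower, they were 9 and 2, 15 and 3, 14 and 1, 6 and 1, and 9 and 3 in the same order of lists. Scaled to mitochondrially encoded mRNAs, no gene of the lists was called lower in either line, and the medians of all genes were 1.18 in YTHDF2-ADAR cells and 1.63 in YTHDF3-ADAR cells. The YTHDF1 RIP libraries of both lines are the 6 that stood apart. With TMM in YTHDF1-ADAR cells, VEGFA, a hypoxia-induced growth factor in the DDIT4 list, was at -0.98 (0.51 when scaled to mitochondrially encoded mRNAs) and the mTORC1 inhibitor SESN3 at 0.95, and in the TARDBP list TIA1 was at 1.83 and EWSR1 at 0.95.

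The 5 profiles over the 12 group means of log2 CPM correlated with each other at Pearson's r of 0.77 to 0.96, a description over groups that include those that chose the members. Among 9085 genes, RCC1L (r = 0.987), UNC45A (0.982), RTCB (0.982), TFCP2 (0.981) and FAM219A (0.977) came closest to the members' mean profile. The closest to single members were RCC1L and WDR5 for MRFAP1, RTCB (0.994) and WRNIP1 for F11R, ARMCX5-GPRASP2 (0.981) and TSFM for DDIT4, MKRN1 (0.988) and HDHD5 for COPRS, and EIF3B (0.973) and WRNIP1 for TARDBP. These names depend on the measure: by Spearman's rank correlation, 1 of the 5 closest to the mean profile was the same gene, and 0 of the 2 closest to each single member.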

How the data were processed

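Per the labels' protocols, YTHDF-ADAR expression was induced with doxycycline, endogenous YTHDF1, YTHDF2 or YTHDF3 was immunoprecipitated from lysate, and DNase-treated RNA went through rRNA depletion and a directional library kit. Per the submitters' processing notes, the authors used STAR 2.7.7, featureCounts 2.0.1 and DESeq2 with GRCh38/hg38. The deposited tables hold raw counts per gene, and per the file headers the counting ignored strand and gave multi-mapping and overlapping reads to every gene, which mixes overlapping genes. A rat sequence in the tables (3.48e-05% of counts) was left out, and 0 columns of other samples were present. The authors' deposited comparison table gives log2 fold changes, p-values and a mean signal, and its symbols were used for 40818 of 60675 genes (1276 more came from a reference table). The authors' deposited editing tables give p-values, a score, the number of sites and a natural log odds ratio per gene, with replicates pooled. The editing level was taken as 100 times the score over the number of sites, which gave back the deposited natural log odds ratio of each listed member within 1e-06.

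Samples were grouped by the labels. Counts were fitted with edgeR 4.0.16 (R 4.3.3) in 1 model of 12 groups and 36 libraries, with TMM factors, the filterByExpr filter on low counts and robust quasi-likelihood tests, adjusted by Benjamini-Hochberg over 31849 genes; all 5 members passed the filter, with 71 to 35005 counts per library. The members and lists were chosen with earlier results of these data known. Members were tested only where neither the YTHDF2 RIP libraries nor the inputs enter. Named genes are the members, the 2 genes of each related list with the smallest p (some are not reported here), and, among 9085 genes with a symbol and mean log2 CPM of at least 4, those with the highest Pearson correlation to the members over group means; PSMD2, SLC18B1, ZNF778 and LRP2 were named after their values were seen. Alternatives were other scaling factors, no filter, a replicate block, fewer libraries, DESeq2 1.42.0 and leaving out each library in turn. The fit was tested on simulated data. Replicate numbers were not treated as pairs of libraries.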

Additional observations from a re-analysis of the deposited data

Results flagged for a closer look

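The difference between YTHDF3 RIP and YTHDF1 RIP was not the same in YTHDF1-ADAR cells as in the mean of the other lines, by an interaction term in edgeR's model. It was lower in YTHDF1-ADAR cells by -4.04 (log2) for DDIT4, -2.00 for MRFAP1, -1.48 for F11R, -1.16 for TARDBP and -0.75 for COPRS. DDIT4 also changed direction, at -2.40 in YTHDF1-ADAR cells, while the YTHDF2-ADAR line had 1.49 and the YTHDF3-ADAR line 1.79. MRFAP1 likewise was lower in YTHDF3 RIP in YTHDF1-ADAR cells and higher in the other lines, but its groups overlapped in YTHDF1-ADAR cells. With 1 library left out, MRFAP1 ran there from -0.88 to -0.29 and its call could be lost. Scaled to mitochondrially encoded mRNAs, it was at 0.86 there. The other lines' YTHDF1 RIP libraries are the 6 that stood apart, with 54.1 to 74.2% of their counts in protein-coding genes, so the line and these libraries cannot be told apart. With groups of 3 libraries, no formal test for single deviating libraries was made, but each library was left out in turn. YTHDF2 RIP against input was also refitted without YTHDF1-ADAR input replicate 1 and YTHDF1-ADAR YTHDF2 RIP replicate 3, chosen after seeing the data. No member changed sign there.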

How the results depend on the processing

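Counts of called genes stayed within 1.5 times of those reported, except as follows. Scaled to mitochondrially encoded mRNAs, the calls numbered 14129 for the interaction (21642 with TMM), 15397 for YTHDF1 RIP between lines (23979), 157 for YTHDF3 RIP between lines (3338) and 5118 for YTHDF2 RIP against input (12656); the cause was not tested. YTHDF3 RIP between lines gave 2084 calls when only its own 9 libraries were fitted, and 1407 to 2886 with 1 library left out (1407 without YTHDF3-ADAR YTHDF3 RIP replicate 3, 2014 without replicate 2). With 1 library left out, the other counts stayed at 11000 to 13361 in YTHDF1-ADAR cells, 21942 to 22832 in YTHDF2-ADAR cells, 21833 to 22877 in YTHDF3-ADAR cells, 20306 to 21870 for the interaction, 21794 to 23725 for YTHDF1 RIP between lines and 11843 to 13351 for YTHDF2 RIP against input.

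Among values of tested members with 1 library left out, 256 kept direction and call, 8 became called, 5 lost the call and 1 changed sign; under other settings these numbers were 219, 6, 11 and 4. The sign changes were MRFAP1 in YTHDF3 RIP against YTHDF1 RIP of YTHDF1-ADAR cells (0.86 scaled to mitochondrially encoded mRNAs) and, for YTHDF3 RIP between lines, MRFAP1 (-0.0137), COPRS (-0.0877) and TARDBP (-0.0132) on that scale and TARDBP (-0.0759) without YTHDF3-ADAR YTHDF3 RIP replicate 1 (-0.0759 to 0.296 over the libraries left out). By edgeR, the MRFAP1 call in YTHDF1-ADAR cells was also lost with total counts (adjusted p = 0.071), without the 6 libraries that stood apart (adjusted p = 0.087, chosen after seeing the data) and with only its groups fitted (adjusted p = 0.091). The COPRS interaction was not called with DESeq2's factors or test (adjusted p = 0.054 in both) or with total counts (adjusted p = 0.16 by edgeR). COPRS in YTHDF1 RIP between lines was called without the filter (0.46) and with only its groups fitted (0.72), and DDIT4 in YTHDF3 RIP between lines was called without the filter (0.62). In YTHDF2 RIP against input F11R moved to 1.76 with total counts and 1.82 on the mitochondrial scale, and no member changed sign.

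Replicate numbers were not treated as pairs. Deviations of same-numbered libraries correlated at -0.394 to 0.327, and in no comparison did every pair exceed 0.1. With so few replicates a group, this cannot exclude that same-numbered libraries came from a shared lysate. YTHDF1 RIP and YTHDF3 RIP were not checked against input. A replicate block gave 13144 calls in YTHDF1-ADAR cells, 23179 in YTHDF2-ADAR cells, 23010 in YTHDF3-ADAR cells, 21653 for the interaction, 23947 and 3503 for YTHDF1 RIP and YTHDF3 RIP between lines and 12698 for YTHDF2 RIP against input; blocked by line, MRFAP1 in YTHDF1-ADAR cells (adjusted p = 0.077 by edgeR) and the COPRS interaction (adjusted p = 0.072 by edgeR) lost their calls. The lowest member count in any library was 71, for COPRS in YTHDF1 RIP of YTHDF2-ADAR cells. The part of depth in these results was not tested, and the editing tables give no depth.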

Other observations

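Within groups, MRFAP1, COPRS and TARDBP deviated together between replicate libraries, while DDIT4 did not follow them. Over the 36 libraries' log2 deviations from their group means, MRFAP1 and COPRS correlated at a Pearson's r of 0.92, MRFAP1 and TARDBP at 0.74 and COPRS and TARDBP at 0.73. DDIT4 stood at -0.01 with MRFAP1, at 0.02 with COPRS and at -0.54 with TARDBP, and F11R at 0.33 to 0.48 with the other 4, the highest with DDIT4. These are descriptions over libraries that share groups, depth and scaling. In YTHDF1-ADAR YTHDF1 RIP replicate 3, MRFAP1, COPRS and TARDBP were at their highest of the group (359, 12.2 and 309 CPM) and DDIT4 at its lowest (315 CPM). In YTHDF3-ADAR YTHDF2 RIP replicate 1, MRFAP1, COPRS and TARDBP were at their lowest (550.5, 37.6 and 256 CPM) and DDIT4 at its highest (675 CPM).

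Counts of the reader genes themselves followed the fusion in the inputs. Counts per gene do not separate a reader's own message from the transcript of its fusion, so both can add to these levels. YTHDF1 averaged 634 CPM in YTHDF1-ADAR cells, against 87.9 and 94.0 CPM in YTHDF2-ADAR and YTHDF3-ADAR cells. YTHDF2 averaged 321 CPM in YTHDF2-ADAR cells, against 154 CPM in YTHDF1-ADAR cells and 197 CPM in YTHDF3-ADAR cells. YTHDF3 averaged 123 CPM in YTHDF3-ADAR cells, against 52.8 and 54.8 CPM in YTHDF1-ADAR and YTHDF2-ADAR cells. In YTHDF1 RIP of YTHDF1-ADAR cells the YTHDF1 gene, with any fusion reads, reached 2446 to 3769 CPM. The inputs of that line held it at 529 to 721 CPM, and it was above them also in YTHDF2 RIP (792 to 1361 CPM) and YTHDF3 RIP (1055 to 1352 CPM). In YTHDF1 RIP of the other lines it stood at 39.9 to 53.3 CPM, below their inputs at 85.6 to 98.5 CPM.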
